A study of Mus musculus with 12 samples.

Results

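Tia1, Tial1 and 8 genes for other core proteins of stress granules (G3bp1, G3bp2, Caprin1, Usp10, Atxn2, Ubap2l, Pabpc1 and Fxr1) were followed through cortical RNA of mice that differ in Tia1 gene dose and in a tau transgene. The 10 genes were found by symbol among the 24062 gene symbols of the count table, and all 10 passed the filter on low counts. RNA came from the cortex of mice aged 9 months, in 4 groups of 3 libraries. The colony came from crosses of PS19 mice (C57BL/6 with C3H) with a Tia1 line backcrossed to C57BL/6J, so these backgrounds were mixed, and the PS19 and P301S Tia1+/- mice are described as littermates. WT mice carried neither the transgene nor the mutant Tia1 copy. The Tia1+/- group had 1 intact and 1 mutant copy of Tia1, the PS19 group carried the P301S tau transgene on 2 intact copies of Tia1, and the P301S Tia1+/- group had both the transgene and the mutant Tia1 copy. The PS19 line expresses human tau of the 1N4R form with the P301S mutation from the mouse prion promoter, a promoter that is active in neurons and in other brain cells. The mutant Tia1 allele is a frame shift that gives no protein, in every cell of the mouse. A count per gene does not separate mutant from intact transcripts, so the count of Tia1 measures both alleles together.

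Stress granules are condensates of untranslated messenger RNA and RNA-binding proteins that form when translation initiation stalls. G3BP1 and G3BP2 drive their assembly with CAPRIN1, USP10 binds the same site on G3BP and opposes it, and TIA1 and TIAL1 join through aggregation-prone domains after binding RNA. In neurons with pathological tau, TIA1 is known to gather in such granules, and its gene dose was lowered here in tau mice.

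Tia1 and Tial1 are paralogues, and so are G3bp1 and G3bp2, so the first point is whether counts of one could hold reads of the other. The coding sequences of Tia1 and Tial1 were identical at 75.1% of 1106 aligned bases, and the longest identical run was 17 bases. The stretches below are the most alike 120 bases of each pair without a gap, shown because they are where reads would be hardest to assign. Bases that differ between the paralogues are in capitals. They were read from GENCODE transcripts on GRCm38 and are written 5′ to 3′, with Tia1 from coding base 311 to 430 and Tial1 from 335 to 454.
Tia1: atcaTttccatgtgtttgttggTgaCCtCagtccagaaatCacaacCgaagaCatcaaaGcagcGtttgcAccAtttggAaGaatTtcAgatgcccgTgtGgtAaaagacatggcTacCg
Tial1: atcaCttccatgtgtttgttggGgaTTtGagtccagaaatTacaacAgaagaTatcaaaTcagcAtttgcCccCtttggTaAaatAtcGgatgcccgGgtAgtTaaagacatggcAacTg
The G3bp pair was less alike, with 67.5% of 1365 aligned coding bases identical, and its stretch is the start of both coding sequences, from base 1 to 120.
G3bp1: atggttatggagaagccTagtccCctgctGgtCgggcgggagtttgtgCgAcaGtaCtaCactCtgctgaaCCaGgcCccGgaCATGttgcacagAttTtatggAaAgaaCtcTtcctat
G3bp2: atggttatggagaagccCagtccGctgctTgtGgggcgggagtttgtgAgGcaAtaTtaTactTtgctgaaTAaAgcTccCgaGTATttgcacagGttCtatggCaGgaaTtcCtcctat
The Tia1 stretch differs from Tial1 at 21 of 120 bases and the G3bp1 stretch from G3bp2 at 25 of 120. No run of 50 bases was shared between transcripts of any of the 10 genes. Runs of 50 bases shared with other genes made up 9.92% of the runs in Pabpc1 and 8.33% in G3bp1, mostly with the pseudogenes Gm16580 and Gm5913, so the counts of these 2 genes are less certain than the others. For Tia1 the share was 2.36%, for Tial1 and Caprin1 it was 0, and for the remaining 5 genes it was between 0.294% and 1.05%. G3bp2 shares 41.1% of its exon bases with Gm26582 on the opposite strand, and the strand setting of the counting is not given in the sources used here. Reads from the opposite strand therefore cannot be told apart from those of G3bp2. Smaller overlaps on the opposite strand were 8.92% of exon bases of Ubap2l with Gm19710 and 5.18% of Fxr1 with Dnajc19. On the same strand Tia1 shares 7.85% with Gm44790, Usp10 2.65% with Gm20388 and G3bp1 0.835% with Mir7652, whatever the strand setting.

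Library totals ran from 11978962 to 19146484 counts, and the 10 genes had between 497 and 8769 counts per library. The titles of the libraries and their genotype entries exchange the Tia1+/- and P301S Tia1+/- groups. Groups follow the titles here, and every group name stands for a label, since no count of Tia1 checks it. The pooled comparison of both Tia1+/- groups with both Tia1+/+ groups is the same under either reading. Xist, expressed from the inactive X of females, had at most 13 counts in WT and PS19 and at least 3304 in both Tia1+/- groups, and the Y-linked Ddx3y had at least 1605 counts in WT and PS19 and at most 2 in both Tia1+/- groups. Sex and Tia1 genotype therefore cannot be told apart in these libraries, although the study's methods name males only. The summed level of 7 olfactory bulb markers, given in CPM (counts scaled to a common library size with TMM), was 564 to 704 in the P301S Tia1+/- libraries and 925 in WT replicate 1, against 4.62 to 130 in the other 8 libraries. A list of 6 striatal markers reached 1159 CPM in Tia1+/- replicate 3, against 72.6 to 193 in the others. All 7 cortical neuron markers were detected in every library, with sums of 448 to 1361 CPM. The lowest were 448 in Tia1+/- replicate 3 and 645 in WT replicate 1. They were 818 to 988 in P301S Tia1+/- and 1096 to 1202 in PS19 libraries. Oligodendrocyte markers summed to 2836 to 3761 CPM in Tia1+/- and 1598 to 2426 in WT libraries. Endothelial markers summed to 129 to 152 CPM in P301S Tia1+/- and 94.8 to 114 in PS19 libraries. In the other Tia1 comparison each of these sums overlapped, and astrocyte and microglia sums overlapped in both.

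All 10 genes were expressed well above detection in every library. Levels between genes were compared as CPM per kilobase of exon. G3bp2 was highest, with a mean of 83.6 ± 9.31 CPM per kilobase (SD, n = 12), which is above 95.8% of tested genes with a known length. Caprin1 followed with 56.0 ± 4.31, Fxr1 with 29.1 ± 3.52 and Pabpc1 with 22.6 ± 3.53. Tial1 at 17.0 ± 2.05 and Tia1 at 16.6 ± 1.86 did not differ beyond their spread, since Tial1 was the higher in 6 of 12 libraries. G3bp1 at 13.9 ± 1.42, Ubap2l at 13.1 ± 0.940 and Usp10 at 12.5 ± 1.36 also overlapped, with G3bp1 above Ubap2l in 8 of 12 libraries and Ubap2l above Usp10 in 9 of 12. Atxn2 was the lowest at 9.91 ± 1.73 CPM per kilobase and lay below Usp10 in all 12 libraries. Across the 12 libraries the SD of log2 CPM was between 0.10 for Ubap2l and 0.26 for Atxn2.

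Tia1 encodes an RNA-binding protein with 3 RNA recognition motifs and a prion-like tail, and lies on chromosome 6 of GRCm38 from 86404219 to 86433405. WT libraries had 93.8, 76.8 and 75.4 CPM of Tia1. Tia1+/- libraries had 61.4, 62.8 and 79.8 CPM, so replicate 3, the one with striatal markers, lay inside the WT range and the other 2 lay below it. PS19 libraries had 77.9, 70.8 and 71.9 CPM. P301S Tia1+/- libraries had 72.6, 73.5 and 77.8 CPM and overlapped PS19 throughout. In Tia1+/- compared with WT the log2 fold change was −0.27 (SE 0.116, n = 3 each, edgeR adjusted p = 0.239), or 17.0% lower, and did not pass the adjusted threshold of 0.05. In P301S Tia1+/- compared with PS19 it was 0.02 (SE 0.116, edgeR adjusted p = 0.934). With both Tia1+/- groups set against both Tia1+/+ groups it was −0.12 (SE 0.082, n = 6 each, edgeR adjusted p = 0.502). The 95% intervals were −0.53 to −0.01, −0.23 to 0.28 and −0.30 to 0.06, and none of them reached −1, the value for 1 transcribed copy in place of 2. WT replicate 1 carried part of the first difference, which was −0.15 without it and −0.39 without Tia1+/- replicate 3. With groups read from the genotype entries the differences were −0.14 without tau and −0.11 with it. When the mean log2 CPM of the olfactory bulb markers entered the fit as a covariate, the difference of Tia1 was 0.029 without tau (edgeR adjusted p = 0.884), −0.52 with P301S tau (adjusted p = 0.0512) and −0.25 over both (adjusted p = 0.0363). The last of these passed the threshold, as 5.41% of all tested genes then did. Because this level was high in all 3 P301S Tia1+/- libraries and low in all 3 PS19 libraries, the covariate and the second comparison can hardly be told apart. The value over both includes that comparison and shares this limit. Whether the change of Tia1 differed between the tau backgrounds was tested as an interaction, which was 0.29 (SE 0.164, edgeR adjusted p = 0.309) and −0.55 (adjusted p = 0.149) with the covariate.

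Tial1 encodes the closest relative of TIA1, with a like set of domains, and the design allows the question whether it is higher where a Tia1 copy is mutant. With groups read from the titles its mean level was lower in both Tia1+/- groups than in the matching controls, by amounts that did not pass the test. Tial1 lies on chromosome 7 from 128439777 to 128461717. WT libraries had 91.2, 90.9 and 78.6 CPM of Tial1, and Tia1+/- libraries had 74.2, 67.4 and 87.6 CPM. PS19 libraries had 68.4, 82.9 and 69.0 CPM, and P301S Tia1+/- libraries had 69.9, 71.9 and 67.8 CPM. The ranges of each Tia1+/- group and its control overlapped. Log2 fold changes were −0.19 (SE 0.113, edgeR adjusted p = 0.396) without tau, −0.07 (SE 0.113, adjusted p = 0.752) with P301S tau and −0.13 (SE 0.080, adjusted p = 0.469) over both. The upper ends of the 95% intervals were 0.06, 0.18 and 0.05, so a rise of Tial1 above 13.1% lay outside all 3 intervals when groups followed the titles. The direction was not the same in all fits. With the genotype entries the difference of Tial1 with P301S tau was 0.059 (edgeR adjusted p = 0.994), and with the olfactory bulb covariate it was 0.057 without tau (adjusted p = 0.796) and −0.51 with P301S tau (adjusted p = 0.0896). Tia1 and Tial1 added together gave 169 ± 15.6 CPM (SD, n = 3) in WT libraries against 144 ± 20.1 in the Tia1+/- group. The sums with P301S tau were 147 ± 6.42 CPM for PS19 and 145 ± 1.71 for P301S Tia1+/- libraries.

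**Figure D1:**
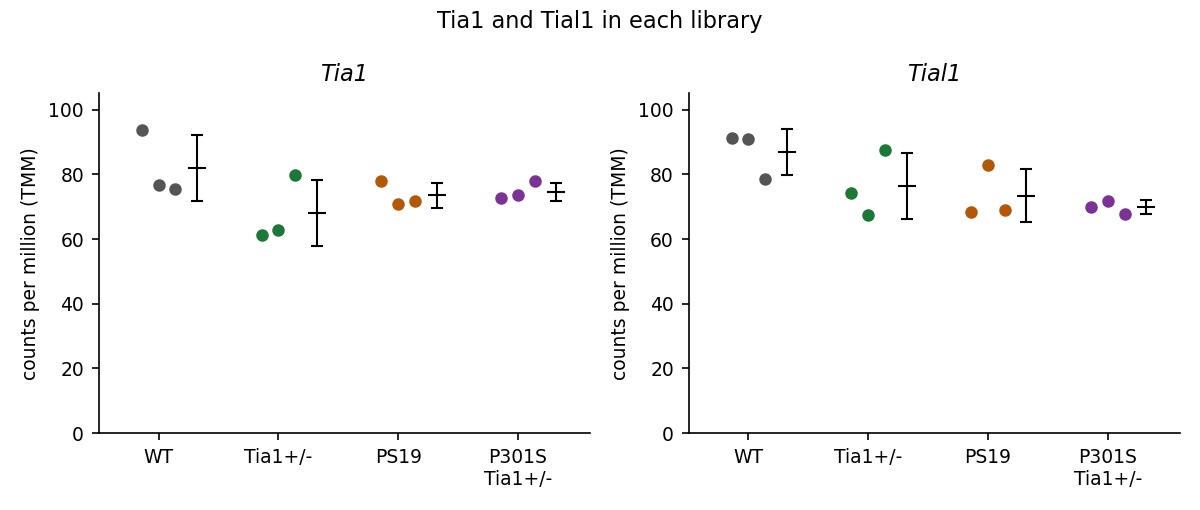
Tia1 and Tial1 in CPM after TMM scaling (vertical axis) for the 3 libraries of each group, with the group mean and SD beside the points. Tia1 in the libraries labelled Tia1+/- and P301S Tia1+/- overlaps that in WT and PS19, and so does Tial1.

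The ratio of Tia1 to Tial1 counts within a library does not depend on library scaling. The ratio was 0.845 to 1.03 in WT and 0.827 to 0.932 in Tia1+/- libraries. It was 0.854 to 1.14 in PS19 and 1.02 to 1.15 in P301S Tia1+/- libraries. Over both tau backgrounds the log2 ratio was higher by 0.0032 in Tia1+/- libraries (n = 6 each, two-sided exact permutation p = 0.985 over 400 arrangements within tau background). The difference was −0.08 in Tia1+/- compared with WT (exact permutation p = 0.4) and 0.09 in P301S Tia1+/- compared with PS19 (exact permutation p = 0.7), where 3 libraries against 3 cannot give a p below 0.1. No difference in the ratio was detected. Over the 12 libraries log2 CPM of Tia1 and Tial1 had a Pearson r of 0.53 (permutation p = 0.0798, n = 12) and a Spearman rho of 0.36 (permutation p = 0.243). Without WT replicate 1 and Tia1+/- replicate 1, the libraries farthest from the median of Tia1, r was 0.38 (permutation p = 0.286, n = 10). As deviations from the group means r was 0.49 (permutation p = 0.105, n = 12).

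**Figure D2:**
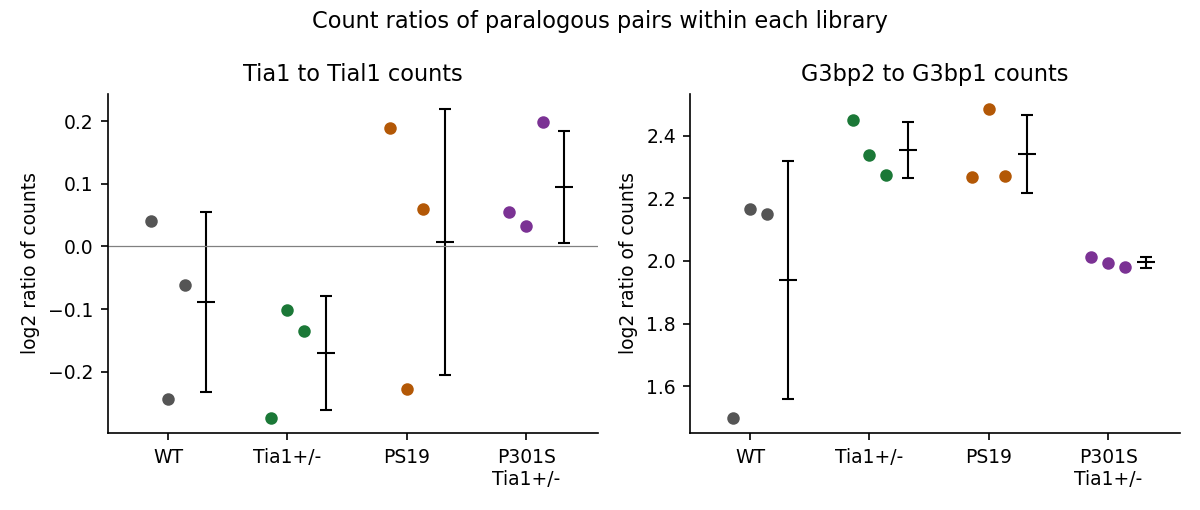
Log2 ratio of counts (vertical axis) of Tia1 to Tial1 and of G3bp2 to G3bp1 within each library, by group, with the group mean and SD beside the points. The Tia1 to Tial1 ratio of the Tia1+/- libraries overlaps that of WT, while the G3bp2 to G3bp1 ratio is 4.83 to 5.47 in Tia1+/- and 3.94 to 4.04 in P301S Tia1+/- libraries.

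G3bp1 encodes the protein whose binding to free messenger RNA starts granule assembly, and lies on chromosome 11 from 55469685 to 55504838. WT libraries had 117, 98.4 and 96.4 CPM of G3bp1, and Tia1+/- libraries had 78.4, 83.0 and 89.0 CPM. PS19 libraries had 94.5, 88.2 and 93.3 CPM, and P301S Tia1+/- libraries had 96.7, 95.2 and 88.9 CPM. Every Tia1+/- library lay below every WT library, whereas PS19 and P301S Tia1+/- overlapped. Lower levels without overlap were found for 10.4% of all tested genes in Tia1+/- compared with WT and for 18.2% in P301S Tia1+/- compared with PS19. The log2 fold change was −0.31 (SE 0.089, edgeR adjusted p = 0.101) in Tia1+/- compared with WT and 0.02 (SE 0.088, edgeR adjusted p = 0.899) in P301S Tia1+/- compared with PS19. The first was −0.21 without WT replicate 1. With the genotype entries in place of the titles they were −0.15 and −0.14, and with the olfactory bulb covariate −0.13 (adjusted p = 0.411) and −0.30 (adjusted p = 0.217). DESeq2 gave G3bp1 an adjusted p of 0.026 in the first of these and called 6.59% of its genes there.

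G3bp2, the paralogue that can replace G3bp1 in assembly, lies on chromosome 5 from 92052146 to 92083719. WT libraries had 330, 441 and 428 CPM of G3bp2, and Tia1+/- libraries had 429, 420 and 430 CPM. PS19 libraries had 456, 494 and 451 CPM, and P301S Tia1+/- libraries had 391, 379 and 351 CPM. Here the groups with P301S tau did not overlap and those without it did. Lower levels without overlap were found for 18.2% of all tested genes with P301S tau. The log2 fold change was −0.32 (SE 0.106, edgeR adjusted p = 0.158) in P301S Tia1+/- compared with PS19 and 0.09 (SE 0.106, edgeR adjusted p = 0.671) in Tia1+/- compared with WT. When only the 6 libraries compared were fitted, G3bp2 had an adjusted p of 0.0148, but 20.1% of all tested genes were then called. The 4 libraries with olfactory bulb markers above 500 CPM had 330 to 391 CPM of G3bp2, and the other 8 had 420 to 494. G3bp2 was the only gene of the 10 whose ranges in these 4 and 8 libraries did not overlap. The share of all tested genes that separate them was not computed, so the separation cannot be called particular to G3bp2. All P301S Tia1+/- libraries are among the 4, and 38.5% of all tested genes did not overlap between that group and PS19. With the genotype entries the 2 values for G3bp2 were −0.13 and −0.10. With the olfactory bulb covariate the difference of G3bp2 with P301S tau was −0.026 (edgeR adjusted p = 0.951) in place of −0.32, and that without tau was −0.063 (adjusted p = 0.787).

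**Figure D3:**
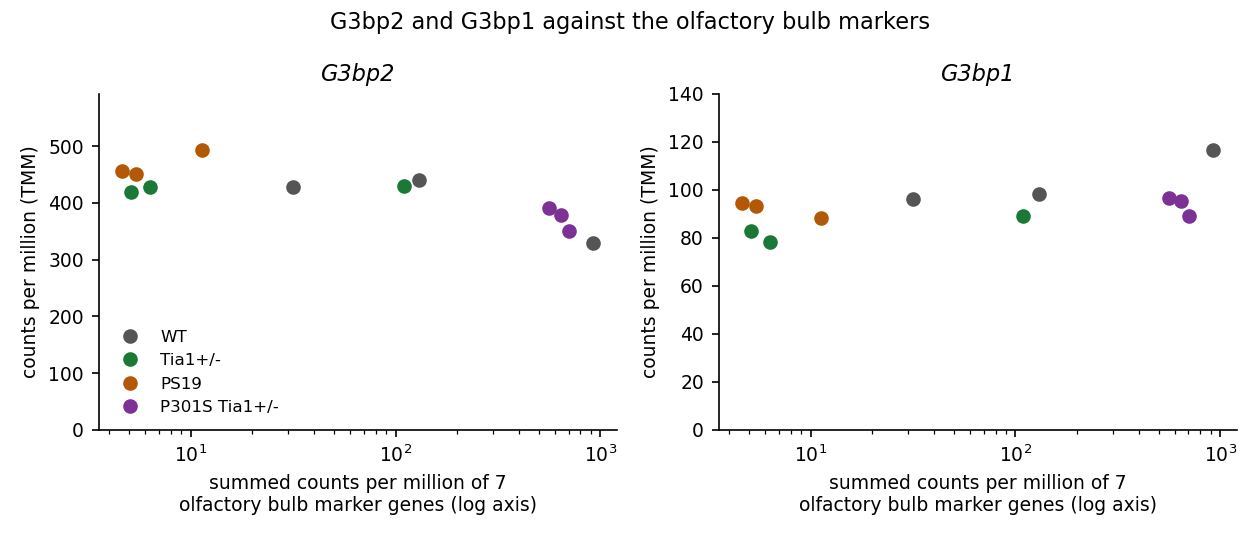
G3bp2 and G3bp1 in CPM (vertical axes) against the summed CPM of 7 olfactory bulb markers (log axis), 1 point per library, coloured by group. The 4 libraries at the right have the 4 lowest values of G3bp2, and WT replicate 1, farthest right, has the highest value of G3bp1.

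In all 12 libraries G3bp2 counts exceeded G3bp1 counts, by 2.83-fold in WT replicate 1 to 5.60-fold in PS19 replicate 2. The ratio of G3bp2 to G3bp1 was 2.83 to 4.49 in WT and 4.83 to 5.47 in Tia1+/- libraries, which did not overlap. It was 4.82 to 5.60 in PS19 and 3.94 to 4.04 in P301S Tia1+/- libraries, which did not overlap in the opposite direction. The log2 ratio was higher by 0.42 without tau and lower with P301S tau, with a difference of −0.35 (exact permutation p = 0.1 in each, the smallest that 3 against 3 can give). This ratio was taken up after its values had been seen. The difference between the backgrounds was −0.76 (n = 12, two-sided exact permutation p = 0.005, the smallest that 400 arrangements can give). Tia1 labels were exchanged within each tau background. This p therefore refers to no Tia1 difference in either background, not to equal differences in both. With groups read from the genotype entries in place of the titles it was −0.05 (exact permutation p = 0.94), so the difference holds only for the titles. With the olfactory bulb covariate the interactions of both genes changed sign, to −0.16 (edgeR adjusted p = 0.689) for G3bp1 and 0.037 (adjusted p = 0.953) for G3bp2.

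Caprin1 and Usp10 encode the G3BP partners that favour and oppose condensation. Caprin1 had 412, 393 and 359 CPM in WT and 328, 319 and 368 CPM in Tia1+/- libraries, which overlapped in 1 library of each group. It had 344, 355 and 360 CPM in PS19 and 349, 341 and 326 CPM in P301S Tia1+/- libraries. Its log2 fold change was −0.20 (SE 0.081, edgeR adjusted p = 0.22) in Tia1+/- compared with WT and −0.06 (SE 0.081, adjusted p = 0.697) in P301S Tia1+/- compared with PS19. Usp10 had 52.5, 47.6 and 54.1 CPM in WT and 50.9, 43.1 and 48.7 CPM in Tia1+/- libraries. It had 41.0, 47.7 and 51.7 CPM in PS19 and 39.9, 40.5 and 42.8 CPM in P301S Tia1+/- libraries, and both pairs of groups overlapped. Neither log2 fold change of Usp10, −0.11 and −0.19, passed the test (edgeR adjusted p = 0.576 and 0.328).

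Atxn2 encodes ataxin-2, which binds poly(A)-binding protein and promotes granule growth. Its WT libraries had 47.4, 55.7 and 54.3 CPM and its Tia1+/- libraries 51.7, 46.1 and 37.9 CPM. The PS19 libraries had 38.7, 46.4 and 47.5 CPM and the P301S Tia1+/- libraries 31.3, 39.8 and 35.2 CPM. Groups overlapped in both tau backgrounds, yet Atxn2 had the largest difference of the 10 genes over both, with a log2 fold change of −0.27 (SE 0.096, n = 6 each, edgeR adjusted p = 0.213). Without tau it was −0.22 (edgeR adjusted p = 0.415) and with P301S tau −0.32 (edgeR adjusted p = 0.235). The value with P301S tau was 0.033 (edgeR adjusted p = 0.995) with the genotype entries and 0.10 (adjusted p = 0.832) with the olfactory bulb covariate. Over both it lay between −0.27 and −0.17 in the alternatives other than leaving out 1 library. Pabpc1, which encodes the poly(A)-binding protein itself, had 83.0, 66.3 and 65.5 CPM in WT libraries against 73.3, 54.7 and 76.2 in the Tia1+/- group. PS19 libraries had 58.5, 67.2 and 55.9 CPM, and P301S Tia1+/- libraries had 52.3, 56.5 and 54.2 CPM. Its groups overlapped in both Tia1 comparisons, with log2 fold changes of −0.07 and −0.16 (edgeR adjusted p = 0.805 and 0.543).

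Fxr1 encodes a relative of the fragile X protein that binds RNA and enters granules. Its WT libraries had 125, 115 and 106 CPM and its Tia1+/- libraries 86.6, 87.2 and 104 CPM, without overlap. Lower levels without overlap were found for 10.4% of all tested genes in that comparison. The PS19 libraries had 95.6, 92.7 and 110 CPM and the P301S Tia1+/- libraries 96.7, 94.0 and 88.5 CPM, with overlap. The log2 fold change was −0.32 (SE 0.101, edgeR adjusted p = 0.13) without tau and −0.10 (SE 0.101, adjusted p = 0.617) with P301S tau. Ubap2l, which encodes a protein that acts with G3BP in assembly, showed the reverse order. It had 64.0, 67.2 and 66.5 CPM in WT and 72.4, 64.5 and 64.0 CPM in Tia1+/- libraries, which overlapped. PS19 libraries had 61.5, 66.6 and 71.4 CPM, and P301S Tia1+/- libraries had 56.3, 60.8 and 60.0 CPM, all below PS19. The same was found for 18.2% of all tested genes. Its log2 fold changes were 0.02 (edgeR adjusted p = 0.909) and −0.17 (edgeR adjusted p = 0.273).

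**Figure D4:**
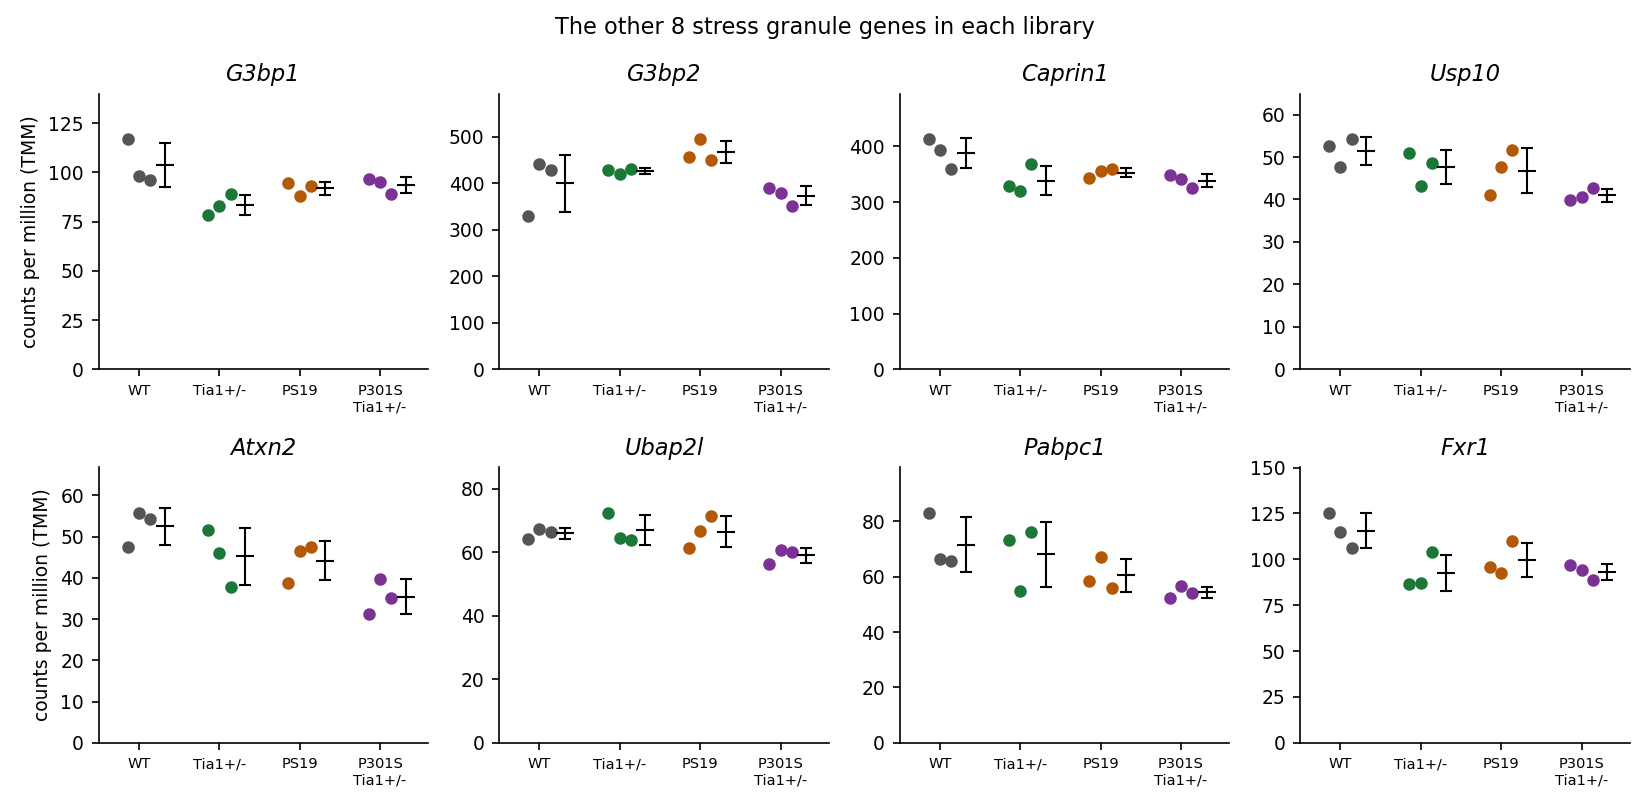
CPM after TMM scaling (vertical axes, each from 0) of the 8 genes other than Tia1 and Tial1 for the 3 libraries of each group, with the group mean and SD beside the points. G3bp1 and Fxr1 separate Tia1+/- from WT libraries, and G3bp2 and Ubap2l separate P301S Tia1+/- from PS19 libraries.

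As a group, the 10 genes leaned lower in both Tia1+/- groups together, by amounts that did not pass the test gene by gene, while the count within each tau background depended on the labels followed. In Tia1+/- compared with WT, 8 of 10 had a log2 fold change below 0, with a median of −0.19 against 0.01 over all 15440 tested genes, of which 49.3% were below 0. None of the 10 passed the adjusted edgeR threshold, which 0.712% of tested genes did, while 4 (Tia1, G3bp1, Caprin1 and Fxr1) had an unadjusted p under 0.05 with a lower level against 10.5% of tested genes. DESeq2 called 1 of the 10 there, against 6.59% of its genes. In P301S Tia1+/- compared with PS19, 8 of 10 were below 0, with a median of −0.13 against 0.01 over all genes, of which 48.5% were below 0. With the genotype entries all 10 were below 0 without tau (median −0.25) and 5 of 10 with P301S tau (median −0.025). With the olfactory bulb covariate 7 of 10 were below 0 without tau (median −0.053) and 9 of 10 with P301S tau (median −0.33). Under the titles, in the comparison with P301S tau, none passed the adjusted threshold in edgeR, against 0.24% of genes, or in DESeq2, against 5.28%, and 2 (G3bp2 and Atxn2) had an unadjusted p under 0.05 with a lower level, against 7.62%. Over both backgrounds all 10 log2 fold changes were below 0, from −0.27 for Atxn2 to −0.07 for Ubap2l, with a median of −0.13 against 0.02 over all genes, of which 46.8% were below 0. None of the 10 passed in edgeR (0.44% of tested genes did) or in DESeq2 (4.87% did), and 4 (G3bp1, Caprin1, Atxn2 and Fxr1) had an unadjusted p under 0.05 with a lower level, against 7.95%. The genes shared libraries and in part moved together, so these counts describe the list and are not 10 independent results. All intervals of the 10 genes in these 3 comparisons stayed above −1, the lowest reaching −0.62 for Atxn2.

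**Figure D5:**
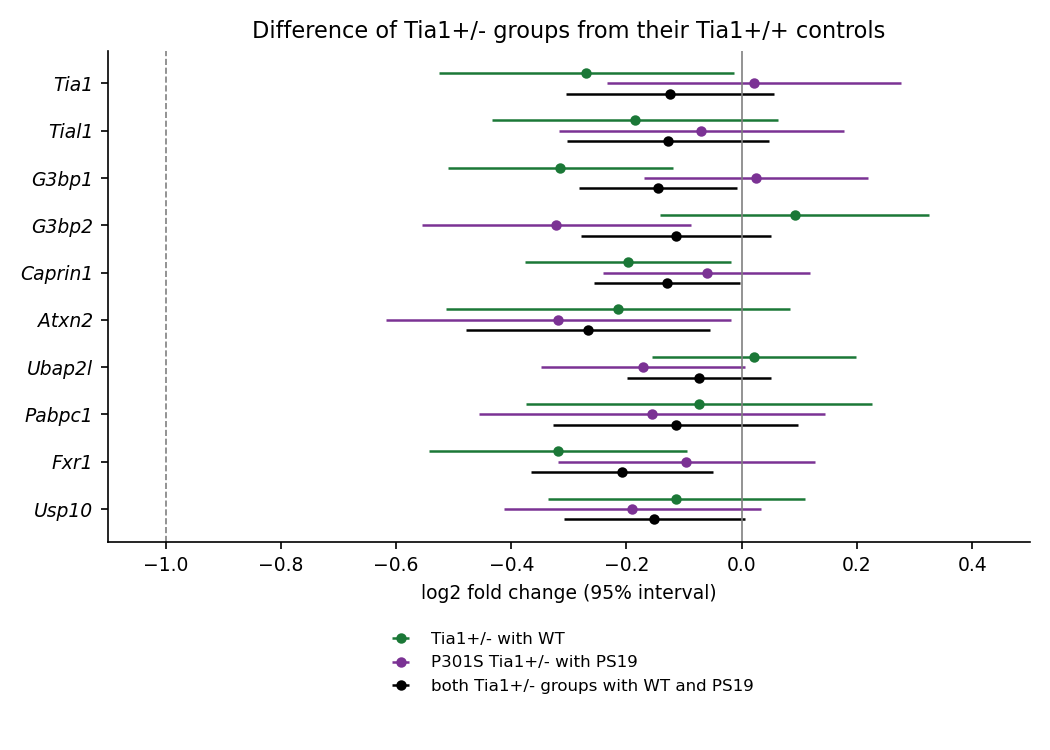
Log2 fold change with its 95% interval (horizontal axis) of each of the 10 genes in Tia1+/- compared with WT, in P301S Tia1+/- compared with PS19, and over both backgrounds. All points for both backgrounds together lie below 0 and all intervals lie above the dashed line at −1.

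P301S tau on its own was compared by setting PS19 against WT. Of the 10 genes, 8 had a log2 fold change below 0, with a median of −0.17 against −0.01 over all genes, of which 51% were below 0. None passed the adjusted threshold and none had an unadjusted p under 0.05 in edgeR, where 0% and 16.3% of tested genes did, and DESeq2 called none against 2.77%. G3bp2 was the highest at 0.22 (SE 0.106, edgeR adjusted p = 0.321) and Atxn2 the lowest at −0.25 (SE 0.136, adjusted p = 0.386). G3bp1 lay below WT and G3bp2 above WT in all PS19 libraries, and groups without overlap were found for 20.8% of genes. This comparison shares the WT libraries with the first one and the PS19 libraries with the second, so a high or low WT library moves both. With the olfactory bulb covariate 3 of the 10 were below 0, with a median of 0.049. The bulb markers summed to 4.62 to 11.3 CPM in PS19 and 31.5 to 925 in WT libraries. Their level therefore separates these groups too, which limits what the covariate can adjust.

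In P301S Tia1+/- compared with Tia1+/- libraries, 7 of 10 genes were below 0, with a median of −0.16 against 0.01 over all genes, of which 48.9% were below 0. None passed the adjusted threshold in edgeR, where 0% of genes did, or in DESeq2, against 2.53%. Unadjusted p under 0.05 with a lower level was found for 3 of 10 genes against 6.66% of tested genes. These were Atxn2 (log2 fold change −0.35, SE 0.136, adjusted p = 0.264), Ubap2l (−0.18, SE 0.080, adjusted p = 0.31) and Pabpc1 (−0.32, SE 0.137, adjusted p = 0.29). G3bp2, Ubap2l and Usp10 were lower in every P301S Tia1+/- library, against 11.1% of genes. With the olfactory bulb covariate Pabpc1 passed at −0.77 (edgeR adjusted p = 0.0235), as 9.51% of genes did, and Atxn2 was at 0.010 (adjusted p = 0.984). The bulb markers summed to 564 to 704 CPM in P301S Tia1+/- and 5.12 to 109 in Tia1+/- libraries. The covariate and this comparison can therefore hardly be told apart.

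The difference between Tia1+/- and Tia1+/+ groups was then compared between the tau backgrounds. Sex and Tia1 genotype cannot be told apart in either background. The interaction was 0.34 for G3bp1 (SE 0.125, edgeR adjusted p = 0.149) and −0.41 for G3bp2 (SE 0.150, edgeR adjusted p = 0.144). Neither passed the adjusted threshold, which 1 of 15440 genes did (0.00648%), and 22.9% of genes had an unadjusted p under 0.05. DESeq2 called none of the 10 against 7.63% of its genes. The other 8 genes had interactions between −0.19 for Ubap2l and 0.29 for Tia1, with unadjusted p of at least 0.103.

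The wider granule machinery was described with 5 lists. Of 40 further stress granule RNA-binding proteins, 27 were below 0 in Tia1+/- compared with WT, 32 in P301S Tia1+/- compared with PS19 and 32 over both, with medians of −0.09, −0.11 and −0.08. In Tia1+/- compared with WT, 1 of the 40 passed the edgeR threshold, which 0.712% of all tested genes did. There 9 had an unadjusted p under 0.05 with a lower level (10.5% of all tested genes did) and 1 with a higher one (8.63% did). DESeq2 called 8, of them 7 lower, against 6.59% of its genes. The gene that passed in edgeR was Fmr1, the X-linked gene of the fragile X protein, with 150, 150 and 130 CPM in WT and 112, 98.2 and 89.2 CPM in Tia1+/- libraries. It fell by 0.52 on the log2 scale (SE 0.101, edgeR adjusted p = 0.047), and the call was lost when 11 of the 12 libraries were left out 1 at a time, WT replicate 3 being the exception. None of the 40 passed in edgeR in the other 2 comparisons. With P301S tau 4 had an unadjusted p under 0.05 with a lower level, against 7.62% of all tested genes, and 3 with a higher one, against 11.7%, and DESeq2 called 1 lower and 2 higher, against 5.28% in all. Over both backgrounds 9 were lower at that level, against 7.95%, and 2 higher, against 7.68%, and DESeq2 called 6 lower and 1 higher, against 4.87%. In P301S Tia1+/- compared with PS19 the log2 fold change of Fmr1 was −0.18 (SE 0.101, edgeR adjusted p = 0.343). PS19 libraries had 104 to 121 CPM of Fmr1 and P301S Tia1+/- libraries 94.0 to 103, so the WT libraries were the high ones for Fmr1. In PS19 compared with WT its log2 fold change was −0.35 (SE 0.101, edgeR adjusted p = 0.176), which did not pass the threshold. Fmr1 is X-linked, and sex and Tia1 genotype cannot be told apart here.

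Of 13 genes for granule clearance, Hspa1a and Hspa1b, which encode the stress-induced chaperone HSP70, passed in Tia1+/- compared with WT. The edgeR threshold was passed there by 0.712% of all tested genes. Hspa1a had 30.6, 21.7 and 23.7 CPM in WT against 12.5, 11.6 and 8.12 CPM in Tia1+/- libraries, and fell by 1.24 on the log2 scale (SE 0.199, edgeR adjusted p = 0.0375). Hspa1b had 35.9, 17.3 and 26.2 CPM in WT against 10.8, 10.7 and 8.63 CPM, with a log2 fold change of −1.40 (SE 0.255, edgeR adjusted p = 0.0446). PS19 libraries had 11.1 to 13.3 CPM of Hspa1a and 11.4 to 13.9 of Hspa1b, and P301S Tia1+/- libraries 8.30 to 12.2 and 7.04 to 11.3, so the WT libraries were the high ones. These genes are near-identical copies, so how their reads were split is uncertain, and the calls of Hspa1a and Hspa1b were lost when 9 and 10 of the 12 libraries were left out 1 at a time, WT replicate 1 and each Tia1+/- library among them. No gene of the list passed in P301S Tia1+/- compared with PS19 or over both, where the smallest adjusted p were 0.189 and 0.0531, 2 and 3 of 13 genes had an unadjusted p under 0.05, all lower, against 7.62% and 7.95% of all tested genes, and DESeq2 called 0 and 3, all lower, against 5.28% and 4.87%. In Tia1+/- compared with WT 4 of the 13 were lower at an unadjusted p under 0.05, against 10.5%, and 1 higher, against 8.63%, and DESeq2 called 4 lower, against 6.59%.

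The 3 remaining lists were of 8 aggregation-prone granule proteins, 19 processing body proteins and 15 genes of translation arrest signalling. They held no gene that passed the edgeR threshold in these 3 comparisons, against 0.712%, 0.24% and 0.44% of all tested genes. DESeq2 called none of their genes with P301S tau or over both, against 5.28% and 4.87% of its genes. In Tia1+/- compared with WT it called only 1, of the arrest list, against 6.59%. Unadjusted p under 0.05 was found in that comparison for 2 of 8, 4 of 19 and 3 of 15 genes, all lower, against 10.5% of all tested genes. With P301S tau no gene of these lists was lower at that level, against 7.62%, while 0, 1 and 1 gene were higher, against 11.7%. Over both backgrounds 2, 0 and 2 genes were lower, against 7.95%, and 0, 1 and 1 gene higher, against 7.68%. Among the largest differences without tau were −0.75 for Ybx1 and 0.37 for Prrc2b among granule proteins, −0.26 for Matr3 among aggregation-prone ones, −0.45 for Zfp36l2 and 0.29 for Dcp1b in processing bodies, −0.63 for Ddit3 and 0.25 for Trib3 in arrest signalling, and −1.61 for Hspb1 and 0.33 for Hspb8 in clearance. With P301S tau they were −0.47 for Eif4g3 and 0.87 for Zc3hav1, 0.04 for Hnrnpk, −0.16 for Eif4enif1 and 0.48 for Dcp1b, −0.11 for Eif2ak1 and 0.24 for Ppp1r15a, and −0.46 for Dyrk3 and 0.57 for Hspb1. Over both backgrounds they were −0.35 for Fmr1 and 0.27 for Zc3hav1, −0.22 for Hnrnpa2b1, −0.21 for Zfp36l2 and 0.39 for Dcp1b, −0.25 for Ddit3 and 0.15 for Eif2b2, and −0.87 for Hspa1b and 0.06 for Ulk1. None of these log2 fold changes passed the test, and Hspb1 had opposite signs in the 2 backgrounds.

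The genes whose log2 CPM followed Tia1 most closely over the 12 libraries were Slfn5 (Pearson r of 0.95), Gng5 (0.94), Gbp7 (0.94), Utp14b (0.94) and Adam17 (0.93), none of them a granule gene of these lists. For Tial1 they were Pcm1 (0.91), Pdzd8 (0.91), Rbm26 (0.90), Brwd3 (0.90) and Klk1b22 (0.88). Each set is the top of 15439 genes ranked on 12 libraries that share depth, dissection and group, and is a description. Tial1 stood at the 81.4th percentile of this ranking for Tia1, and Tia1 at the 92.4th for Tial1.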

How the data were processed

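Cortical RNA of 12 mouse libraries was sequenced after stranded total RNA preparation. The authors aligned reads to mm10 with TopHat2 2.0.6, per the submitters' processing notes, and made the counts with featureCounts. The study's methods name a later TopHat release, and which was used is not settled here. The annotation and the handling of reads with several alignments are not given in the sources used here. The deposited values are raw counts per gene symbol, of which 3287 of 24062 were 0 throughout. Gene positions and sequences came from GENCODE on GRCm38. edgeR 4.0.16 in R 4.3.3 was used with TMM scaling, filterByExpr (15440 genes kept) and the quasi-likelihood F test on all 12 libraries with 1 mean per group. p-values were adjusted by Benjamini-Hochberg over all tested genes. DESeq2 1.42.0 was an alternative. Single ratios were tested by exact permutation of Tia1 labels within tau background. Log2 CPM used a prior count of 2. The edgeR fit and the permutation test of a difference of means were tested on simulated data that held no outlying library. The permutation test of the interaction was not tested in this way.

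The 10 genes and the lists were chosen with earlier results of these data known. Named genes were the 10, list genes past the threshold, the largest rise and fall per list in the first 3 comparisons, and the 5 genes most correlated with Tia1 and with Tial1. One gene that the rule names is not reported here. Groups followed library titles. Libraries are separate mice per the study's methods. Intervals cover the spread between libraries. The alternatives are given in the closing section.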

Additional observations from a re-analysis of the deposited data

Results flagged for a closer look

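The log2 ratio of G3bp2 to G3bp1 counts was higher in Tia1+/- than in WT libraries and lower in P301S Tia1+/- than in PS19 libraries, with a difference of −0.76 between them (two-sided exact permutation p = 0.005, n = 12, the smallest p that 400 arrangements can give). Every Tia1+/- library lay above every WT library and every P301S Tia1+/- library lay below every PS19 library. The ratio was chosen after its values were seen. The permutation p refers to no Tia1 difference in either tau background, not to equal differences in both. Without each library in turn the difference was between −0.88 and −0.54, the latter without WT replicate 1. With groups read from the genotype entries it was −0.05 (exact permutation p = 0.94). Olfactory bulb markers were high in all 3 P301S Tia1+/- libraries and in WT replicate 1, which had the 4 lowest ratios. In the edgeR fit that held this level as a covariate, the interaction of G3bp1 went from 0.34 to −0.16 and that of G3bp2 from −0.41 to 0.037, so both changed sign. Sex and Tia1 genotype cannot be told apart in these libraries.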

How the results depend on the processing

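Of 682 alternative values for the 33 log2 fold changes of the 10 genes given above, 636 kept their direction and their side of the threshold, 8 passed it and 38 changed sign. Other log2 fold changes of the 10 genes were left out of this tally, and the counts of members called below include them. Without each library in turn no member was called except 1 (G3bp2) in P301S Tia1+/- compared with PS19 without WT replicate 1, where 10.3% of all genes were called, so the members called ranged from 0 to 1 there and stayed at 0 elsewhere. The 12 values without 1 library each ranged from −0.39 to −0.15 for Tia1 and −0.29 to −0.09 for Tial1 in Tia1+/- compared with WT, from −0.029 to 0.041 and −0.14 to 0.00086 in P301S Tia1+/- compared with PS19, and from −0.19 to −0.06 and −0.18 to −0.09 over both. The pooled log2 ratio of Tia1 to Tial1 ranged from −0.055 to 0.049, with −0.082 in the background without tau. Single libraries also turned signs, with ranges from −0.014 to 0.17 for G3bp2, −0.034 to 0.061 for Ubap2l and −0.16 to 0.070 for Pabpc1 without tau, and −0.029 to 0.061 for G3bp1 with P301S tau.

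DESeq2 called 1 member in Tia1+/- compared with WT, against 6.59% of its genes. With only the libraries compared, 1 was called in P301S Tia1+/- compared with PS19, against 20.1% of genes. Without WT replicate 1 and Tia1+/- replicate 3 together, 2 (G3bp2 and Atxn2) were called in P301S Tia1+/- compared with PS19. In that setting 2 were called over both and 2 in P301S Tia1+/- compared with Tia1+/-. The shares of all genes called in these 3 comparisons were 22.9%, 11% and 23.4%. When the olfactory bulb level entered the fit, 4 were called over both, Tia1 (−0.25, edgeR adjusted p = 0.0363) among them, against 5.41% of genes. In P301S Tia1+/- compared with Tia1+/- 1 was then called, against 9.51% of genes. This level was high in all 3 P301S Tia1+/- libraries and WT replicate 1 and low in PS19 and Tia1+/- libraries. Signs then turned for Tia1 (0.029), Tial1 (0.057), G3bp2 (−0.063), Ubap2l (−0.044) and Pabpc1 (0.23) in Tia1+/- compared with WT, for Tia1 (−0.52), G3bp1 (−0.30) and Atxn2 (0.10) in P301S Tia1+/- compared with PS19, for Atxn2 (0.010) in P301S Tia1+/- compared with Tia1+/-, and for the interactions of Tia1 (−0.55), G3bp1 (−0.16) and G3bp2 (0.037). Without both libraries they turned for G3bp2 (−0.040) without tau and Tia1 (−0.0032) with it. With genotype entries in place of titles they turned for G3bp2 (−0.098) and Ubap2l (−0.16) without tau, for Tia1 (−0.11), Tial1 (0.059), G3bp1 (−0.14), Atxn2 (0.033), Ubap2l (0.010), Pabpc1 (0.17) and Usp10 (0.022) with P301S tau, and for the interaction of Ubap2l (0.17). P301S Tia1+/- compared with Tia1+/- is then the same fit with its sign exchanged and is not given. G3bp2 in P301S Tia1+/- compared with PS19 kept its sign with the covariate but was −0.026 in place of −0.32. The cause of these changes was not tested.

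Over all genes DESeq2 called 972, 821 and 622 genes in the first 3 comparisons where edgeR called 110, 37 and 68. Residual correlations of same-numbered libraries were above 0.1 in 7 of 18 pairs (median −0.06). Differently numbered pairs were not examined, so whether the replicate number pairs the libraries was not settled. With the number as a replicate block 9, 7 and 12 genes were called, no member among them, and Tia1 had −0.27, 0.02 and −0.12. With 3 libraries a group, the standard errors of the 10 genes were 0.080 to 0.137 on the log2 scale in comparisons of 3 with 3.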
